A study of Homo sapiens with 23 samples.

Results

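Control Caco-2 cells that had shared circulating medium with HepG2 cells were compared with control Caco-2 cells cultured alone, in the absence of free fatty acids (FFAs) on either side. The comparison held 2 co-cultured libraries (Caco2_CoCul_Cont, replicates 1 and 2) and 3 mono-cultured libraries (Caco2_MonoCul_Cont, replicates 1 to 3), 5 of the 23 libraries of the series. Every gene whose mean reached 1 TPM in either group was examined, which left 14608 of the 60564 genes listed. The other Caco-2 libraries, 3 co-cultured and 3 mono-cultured with 1 mM FFAs (palmitic and oleic acid) for 1 day, entered the same statistical fit and served as a second comparison of both culture modes that shared no library with the control comparison. Caco-2 is an established line from a human colorectal adenocarcinoma that takes on features of absorptive small-intestinal cells, and HepG2 is an established line from a human liver tumour. Each is a single tumour line, so the groups differ in the cells on the other side of the loop and not in donor or genotype. In both culture modes the cells lay in chambers of iGLC, a gut-liver chip, and were grown in Dulbecco's modified Eagle medium with fetal bovine serum. According to the labels, the treatment medium held a low concentration of serum, whereas the methods describe serum-free medium with albumin. The methods speak of biological replicates and independent experiments but tie no library to a chip, day or experiment, so the p-values measure the spread between these libraries, which may in part be technical.

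The gut and the liver exchange metabolites, bile acids and secreted proteins through the portal circulation, and the iGLC chip joins both cell types by a closed medium loop while the cells themselves stay in separate chambers. Enterocyte-like cells take up sugars and amino acids through solute carriers, return drugs and bile acids to the lumen through ABC transporters, and respond to growth factors, BMP ligands and cytokines by changing a small set of rapidly transcribed genes. HepG2 cells secrete large amounts of plasma proteins. RNA from HepG2 cells in a Caco-2 chamber would therefore appear as transcripts of plasma proteins, and levels of HepG2 markers are given beside the results they touch.

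TPM, levels scaled for transcript length, add up to the same total in each library and keep no record of read numbers, so the depth of each library is unknown and no counting error is given. Genes above 0 TPM numbered 21595 and 23689 in the co-cultured libraries and 21042, 21596 and 22637 in the mono-cultured ones. The difference did not exceed the spread between libraries (two-sided exact permutation test, p = 0.5, where 10 relabellings allow no p below 0.1). Co-cultured replicate 2 and mono-cultured replicate 3 listed more genes than the other 3 control libraries, and values within these 2 sets of libraries are given at the end. No 2 libraries held identical values. Epithelial markers were high in every control library. EPCAM, an epithelial adhesion molecule, had 1315 and 1312 TPM in co-culture against 1302, 1298 and 1354 TPM in mono-culture, and VIL1, which encodes the brush border protein villin, had 473 and 459 TPM in co-culture against 470.4, 418 and 408 TPM in mono-culture. Over all 16 Caco-2 and intestinal epithelial markers, of which 15 were tested, the summed level ran from 13020 to 13493 TPM in co-culture and from 13955 to 16168 TPM in mono-culture. Of the 17 markers of other cell types (fibroblast, endothelial, immune, erythroid and neural), 9 reached the filter and 2 were listed at 0 throughout. The summed level of all 17 lay between 106 and 126 TPM in all 5 libraries.

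Only 3 genes differed between co-culture and mono-culture at an adjusted p under 0.05 (limma with Benjamini-Hochberg adjustment over the 14608 genes), all of them higher in co-culture, which is 0.0205% of the genes tested. No gene was lower at this threshold. At an unadjusted p under 0.05, 257 genes (1.76%) were lower and 566 (3.87%) higher, 823 in all (5.63%). Of these, 241 lower genes (1.65%) and 523 higher genes (3.58%) also showed no overlap between the groups. Differences are given on the log2(TPM + 1) scale as co-culture minus mono-culture with the standard error (SE), and the scale understates changes of genes with low TPM. Their median over all genes was 0.04, with the 5% and 95% quantiles at −0.33 and 0.52. The split between higher and lower genes depended on the scaling of the libraries. After median-of-ratios scaling 427 genes were higher and 405 lower, and after quantile normalization 395 were higher and 383 lower. Of all genes, 58.3% had a higher and 41.7% a lower mean in co-culture. Without overlap between the 2 and the 3 libraries, 15.3% were higher and 8.15% lower. The share of higher genes varied with the class of gene. Of 12337 protein-coding genes 377 (3.06%) were higher at an unadjusted p under 0.05, compared with 126 of 1496 long non-coding RNA genes (8.42%) and 43 of 611 pseudogenes (7.04%). The lower shares were 1.84%, 1.14% and 1.31% in the same order. A gene near 1 TPM can pass the filter through the higher group alone, and the classes were not compared at equal levels. For single genes the co-cultured replicates 1 and 2 are given first, then the mono-cultured replicates 1 to 3, then the difference ± SE. Every gene given with an SE passed an unadjusted p of 0.05 in limma, but apart from the 3 called genes none passed the adjusted threshold, and limma's adjusted p was 0.842 for all of them except CCKBR and TCEA2.

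**Figure D1:**
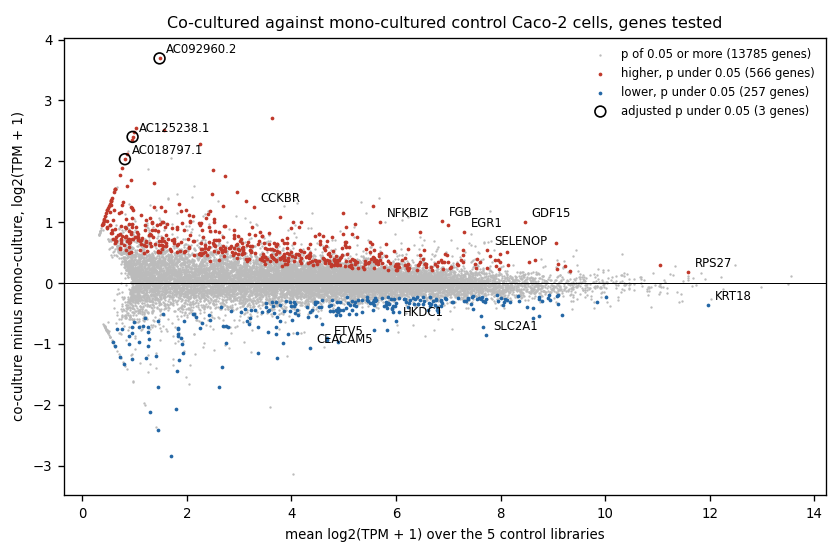
Difference between co-cultured and mono-cultured control Caco-2 cells (y axis, log2(TPM + 1)) against the mean level over the 5 libraries (x axis, log2(TPM + 1)) for the 14608 genes tested. Red and blue points are the 566 higher and 257 lower genes at an unadjusted p under 0.05, rings mark the 3 genes at an adjusted p under 0.05, and these 3 lie at the low end of the level axis.

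All 3 genes that passed the adjusted test were short non-coding loci that were listed at 0 TPM in all 9 other Caco-2 libraries, the 3 with FFAs in co-culture included. They passed the filter of 1 TPM only through the co-cultured controls, where they were high, so the filter let them in already different. Their SE pools the spread over all Caco-2 groups, and the groups listed at 0 throughout had no spread. The 2 processed pseudogenes among them are shown in full because each resembles a more strongly expressed gene, and their TPM are uncertain wherever reads are divided among similar sequences. AC125238.1 (ENSG00000233031, chr2:203672175-203672423, - strand, GRCh38) is a processed pseudogene that overlaps no other annotated gene. It had 4.56 and 4.02 TPM in co-culture against 0, 0 and 0 TPM in mono-culture (difference 2.40 ± 0.22, adjusted p = 0.00342). Its 249 bases matched NDUFA4, which encodes a subunit of the mitochondrial respiratory chain, with 88.8% identity, and NDUFA4 itself had a mean of 163 TPM in co-culture and 173 TPM in mono-culture. AC092960.2, annotated as a small nucleolar RNA gene, had 21.8 and 6.31 TPM in co-culture against 0, 0 and 0 TPM in mono-culture (difference 3.69 ± 0.38, adjusted p = 0.00536), and the 2 co-cultured libraries differed between themselves. AC018797.1 (ENSG00000224207, chr4:102734358-102734612, + strand) is a processed pseudogene with 96.1% identity to MANBAL over its 255 bases. It had 4.0 and 2.36 TPM in co-culture against 0, 0 and 0 TPM in mono-culture (difference 2.04 ± 0.25, adjusted p = 0.0195). Bases 26 to 217 (in capitals) were identical to an exon of MANBA, the lysosomal beta-mannosidase gene that overlaps it on the opposite strand. MANBAL had means of 153 and 164 TPM and MANBA of 32.2 and 26.9 TPM in co-culture and mono-culture. The transcript sequences of AC125238.1 and AC018797.1, from GENCODE v44, are:
AC125238.1: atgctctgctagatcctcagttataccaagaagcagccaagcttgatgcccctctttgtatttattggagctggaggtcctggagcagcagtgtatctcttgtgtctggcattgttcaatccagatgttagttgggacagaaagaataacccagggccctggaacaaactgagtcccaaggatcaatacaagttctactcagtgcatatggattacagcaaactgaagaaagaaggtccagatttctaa
AC018797.1: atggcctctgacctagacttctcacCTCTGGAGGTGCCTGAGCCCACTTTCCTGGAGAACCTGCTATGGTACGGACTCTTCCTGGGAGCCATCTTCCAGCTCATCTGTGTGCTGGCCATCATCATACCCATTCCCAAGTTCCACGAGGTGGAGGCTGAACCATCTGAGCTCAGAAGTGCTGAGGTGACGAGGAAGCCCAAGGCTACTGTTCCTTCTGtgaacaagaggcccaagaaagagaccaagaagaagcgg
These calls were lost when only the 5 control libraries were fitted (adjusted p = 0.243, 0.359 and 0.468 for AC125238.1, AC092960.2 and AC018797.1) and with a pseudocount of 0.1 in place of 1 (0.75, 0.135 and 0.85 in the same order). The call of AC018797.1 was also lost without any 1 of the mono-cultured libraries (adjusted p between 0.0762 and 0.0843). The difference between the co-culture effects with and without FFAs, tested as an interaction, did not pass for any of them (adjusted p = 0.0672, 0.0978 and 0.27).

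Among protein-coding genes of 5 TPM or more on average with an unadjusted p under 0.01 and no overlap, the 10 with the largest positive differences were led by a histone gene and a hormone receptor. HIST1H2BJ, a histone H2B gene of a family with near-identical copies and therefore uncertain, had 8.39 and 3.04 TPM in co-culture against 0.760, 2.05 and 1.92 TPM in mono-culture (1.3 ± 0.39). CCKBR (ENSG00000110148, chr11:6259806-6272127, + strand), the receptor for gastrin and cholecystokinin, had 15.1 and 15.6 TPM in co-culture against 8.90, 5.59 and 4.03 TPM in mono-culture (1.24 ± 0.23, adjusted p = 0.468). Both co-cultured libraries were nearly equal and above every mono-cultured one, and the FFAs-treated libraries showed the same order, with 17.6, 17.4 and 15.4 TPM in co-culture against 7.93, 6.97 and 7.45 TPM in mono-culture and a difference of 1.07. SPOCK3, a secreted proteoglycan, had 5.82 and 5.20 TPM in co-culture against 1.63, 1.49 and 2.50 TPM in mono-culture (1.19 ± 0.33). CREB5, a transcription factor that binds cAMP response elements, had 3.81 and 7.25 TPM in co-culture against 1.73, 1.86 and 2.95 TPM in mono-culture (1.01 ± 0.30). SLC25A25, a calcium-dependent mitochondrial carrier of adenine nucleotides, had 20.9 and 33.9 TPM in co-culture against 9.56, 12.4 and 17.6 TPM in mono-culture (1.01 ± 0.32). C4orf33 had 8.54 and 5.75 TPM in co-culture against 2.60, 3.0 and 2.90 TPM in mono-culture (1.07 ± 0.27), UBALD2 had 7.55 and 7.76 TPM in co-culture against 3.11, 3.39 and 3.47 TPM in mono-culture (1.00 ± 0.31). The readthrough transcript STIMATE-MUSTN1, which shares exons with its neighbours and is therefore uncertain, had 10.3 and 6.01 TPM in co-culture against 2.17, 4.0 and 4.0 TPM in mono-culture (1.05 ± 0.32). NFKBIZ and HBEGF, the other two of the 10, are described with their pathways.

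Several further genes were higher in co-culture without overlap both in the controls and with FFAs, a pattern shown by 216 genes (1.48%), with 183 genes (1.25%) lower in both. With FFAs alone, 4.57% of genes were higher and 4.65% lower without overlap. TCEA2, a transcription elongation factor, had 30.5 and 35.2 TPM in co-culture against 20.6, 17.9 and 17.8 TPM in mono-culture (0.78 ± 0.16, adjusted p = 0.782). SLC25A29, a mitochondrial carrier of basic amino acids, had 24.8 and 17.3 TPM in co-culture against 11.2, 13.8 and 13.7 TPM in mono-culture (0.65 ± 0.18). SLC41A2, a magnesium transporter, had 13.4 and 13.4 TPM in co-culture against 8.15, 9.17 and 8.66 TPM in mono-culture (0.58 ± 0.16). SDSL, a serine dehydratase-like enzyme, had 18.4 and 16.6 TPM in co-culture against 11.9, 12.5 and 12.1 TPM in mono-culture (0.49 ± 0.14). Among genes averaging 100 TPM or more, the smallest p-values on the higher side belonged to SELENOP, EDC4, HNRNPDL and PDZK1. HNRNPDL, an RNA-binding protein, had 179 and 173 TPM in co-culture against 139, 127 and 139 TPM in mono-culture (0.38 ± 0.11). EDC4, a scaffold of mRNA decapping, had 119.6 and 124 TPM in co-culture against 98.4, 95.97 and 99.2 TPM in mono-culture (0.32 ± 0.085), but with FFAs the order of the groups was the opposite, 95.1, 108 and 104 TPM in co-culture against 114, 110.1 and 118 TPM in mono-culture.

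**Figure D2:**
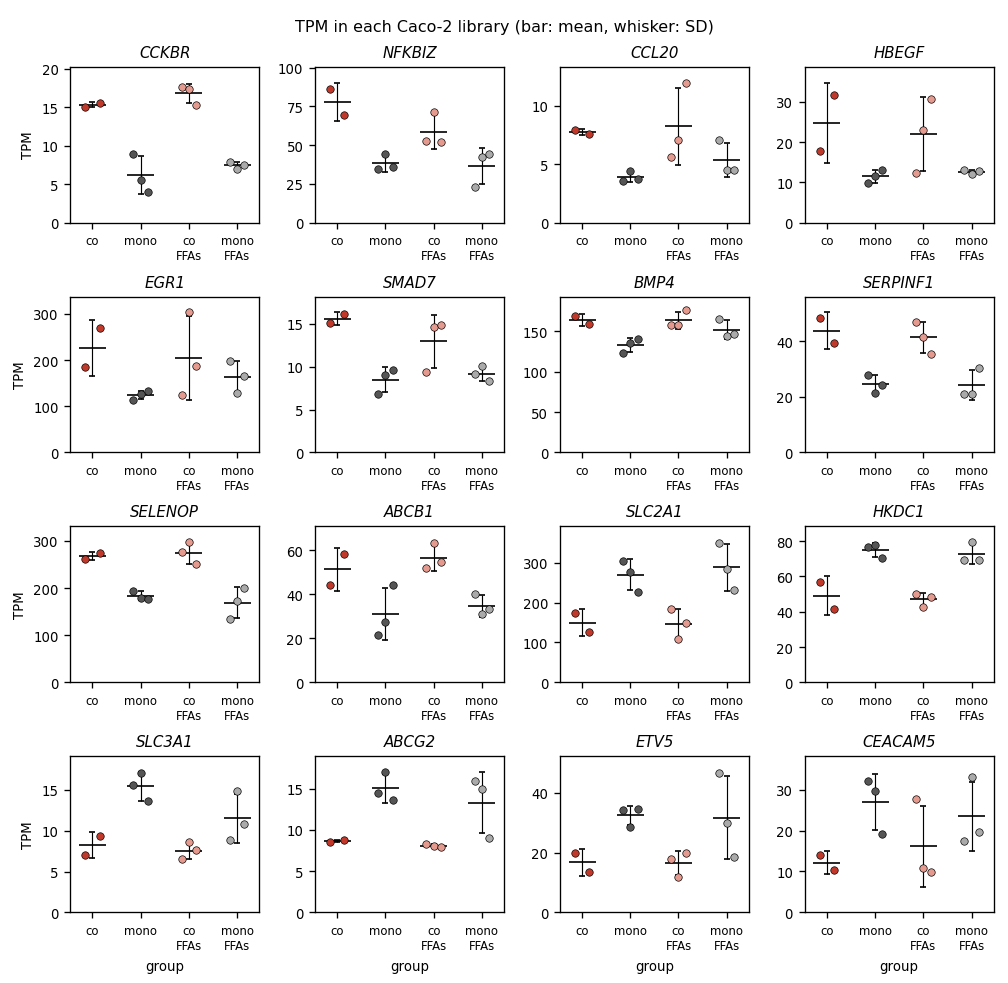
TPM of 16 named genes in each of the 11 Caco-2 libraries (y axis, from 0; x axis, group: co-culture, mono-culture, and both with FFAs). Points are libraries, horizontal bars means and whiskers SD (n = 2 in control co-culture and 3 in the other groups), and the 2 co-cultured control libraries lie on one side of the 3 mono-cultured ones in all 16 panels. Many of these genes were named by a rule that required this separation.

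Genes that growth factors and stress switch on within minutes, and those that feed back on the MAP kinase ERK, had a higher median than the other lists. Medians of lists are descriptions of these 5 libraries, since leaving out 1 library moved the median by over 1.5 times in 34 of the 35 lists and changed its sign in 12. Counts of list members higher or lower in mean stand beside 58.3% and 41.7% of all genes. Those at an unadjusted p under 0.05 stand beside 3.87% and 1.76%. After median-of-ratios scaling 7188 of 14608 genes were higher in mean. Of 34 immediate-early and ERK feedback genes tested 30 had a higher mean in co-culture, with a median difference of 0.53 against 0.04 over all genes, but only 4 were higher and 2 lower at an unadjusted p under 0.05. The median was 0.74 without co-cultured replicate 1 and 0.18 without co-cultured replicate 2, so the size of the median rested largely on replicate 2, and without it the list ranked below the BMP-SMAD targets (0.48). HBEGF (ENSG00000113070, chr5:140332843-140346603, - strand), a membrane-bound ligand of the EGF receptor, had 17.8 and 31.7 TPM in co-culture against 9.85, 11.5 and 13.1 TPM in mono-culture (1.00 ± 0.32). EGR1, a zinc finger transcription factor that is the prototype of this gene class, had 184 and 270.1 TPM in co-culture against 114, 127 and 132 TPM in mono-culture (0.84 ± 0.30). For both genes replicate 2 was the higher co-cultured library, and both co-cultured libraries exceeded all mono-cultured ones. The 300-base promoter of EGR1 (RefSeq, GRCh38.p14, chr5:138465229-138465528, + strand, from 250 bases before the start to 50 after it) is shown because it holds CArG boxes, the elements bound by serum response factor. Both strands were searched for the 10-letter CArG consensus, 1.29% of the 35116 promoters of the table hold it, and its 2 matches are in capitals, beginning 105 and 83 bases before the start:
EGR1: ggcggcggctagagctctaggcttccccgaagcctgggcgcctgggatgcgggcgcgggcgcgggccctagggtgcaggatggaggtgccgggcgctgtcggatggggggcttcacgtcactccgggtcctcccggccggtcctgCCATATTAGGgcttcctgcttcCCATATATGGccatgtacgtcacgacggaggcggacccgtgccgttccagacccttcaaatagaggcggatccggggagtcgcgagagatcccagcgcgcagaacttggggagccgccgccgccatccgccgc
In contrast, the ETS factors ETV4 and ETV5, which are transcribed under ERK activity and feed back on FGF and EGF signalling, had lower values in co-culture. ETV5 had 19.96 and 13.5 TPM in co-culture against 34.05, 28.6 and 34.5 TPM in mono-culture (-0.93 ± 0.32). ETV4 had 44.3 and 25.3 TPM in co-culture against 72.7, 63.3 and 41.7 TPM in mono-culture (-0.77 ± 0.29). Here mono-cultured replicate 3 lay just below co-cultured replicate 1. With FFAs the median over the list was 0.14, and the difference for EGR1 was 0.24, which did not pass.

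BMP and TGF-beta ligands bind paired serine/threonine kinase receptors that phosphorylate SMAD proteins, and the BMP-responsive SMADs switch on the ID genes and their own inhibitors. Of 22 ligands, receptors and SMADs tested, 4 were higher and 0 lower at an unadjusted p under 0.05, with 16 higher and 6 lower in mean and a median of 0.13 (0.10 without co-cultured replicate 2 and 0.25 without co-cultured replicate 1). The ligand BMP4 had 169 and 159 TPM in co-culture against 123, 135 and 140.4 TPM in mono-culture (0.30 ± 0.096). The receptor BMPR1A had 38.4 and 40.6 TPM in co-culture against 31.1, 31.7 and 28.6 TPM in mono-culture (0.36 ± 0.12). SMAD3, a transducer of TGF-beta, had 24.8 and 26.9 TPM in co-culture against 20.02, 20.99 and 18.6 TPM in mono-culture (0.36 ± 0.16). GDF15, a distant member of the ligand family that is secreted under stress, had 352 and 816 TPM in co-culture against 226, 237 and 357 TPM in mono-culture (1.00 ± 0.45), where mono-cultured replicate 3 was above co-cultured replicate 1. Of 10 BMP-SMAD targets tested, 9 had a higher mean in co-culture (against 58.3% of all genes) and 6 were higher without overlap (against 15.3%). Their median was 0.37, and 2 were higher at an unadjusted p under 0.05 (against 3.87% of all genes). The median was 0.19 without co-cultured replicate 1 and 0.48 without co-cultured replicate 2. The inhibitory SMAD7 had 15.1 and 16.2 TPM in co-culture against 6.82, 9.07 and 9.63 TPM in mono-culture (0.82 ± 0.21). The homeobox gene MSX2 had 56.6 and 62.9 TPM in co-culture against 47.4, 50.7 and 43.7 TPM in mono-culture (0.33 ± 0.12). SMAD7 also had a higher level in co-cultured than in mono-cultured control HepG2 cells, measured in separate libraries, with a difference of 0.98, past an unadjusted p of 0.05 in limma as were 3.24% of 13849 HepG2 genes on the higher side (4.48% on the lower). Among the named genes the sign in control HepG2 cells was mixed. PDZK1 (−0.73 in HepG2, 0.54 in Caco-2) and WDR4 (0.33 and −0.63) passed the same threshold with opposite signs. A response shared by both lines was not tested. Targets shared by TGF-beta and the YAP coactivator had a median of 0.33 over 15 tested genes, of which 11 were higher and 4 lower in mean, and only F3, the cell-surface initiator of clotting, passed an unadjusted p of 0.05, with 14.2 and 18.6 TPM in co-culture against 7.95, 10.0 and 12.6 TPM in mono-culture (0.65 ± 0.28). The median of this list was 0.60 without co-cultured replicate 1 and 0.09 without co-cultured replicate 2.

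Inflammatory genes as a list had a median close to that of all genes, and single members differed in both directions. Of 23 NF-kB targets, chemokines and acute-phase genes tested, 2 were higher and 1 lower at an unadjusted p under 0.05, with a median of 0.06 (0.06 without mono-cultured replicate 1 and 0.13 without co-cultured replicate 2). NFKBIZ (ENSG00000144802, chr3:101827991-101861022, + strand), a nuclear IkB protein that steers a subset of NF-kB targets, had 86.4 and 69.3 TPM in co-culture against 34.8, 44.3 and 35.6 TPM in mono-culture (1.01 ± 0.25). With FFAs it had 52.8, 71.7 and 51.9 TPM in co-culture against 22.9, 42.6 and 44.3 TPM in mono-culture. The groups did not overlap in either condition. The first of its 2 RefSeq promoter windows (chr3:101827740-101828039, + strand, GRCh38.p14) is shown because NFKBIZ was among the protein-coding genes with the largest differences. It holds 1 match to the 10-letter NF-kB consensus (both strands searched, in capitals), 223 bases before the start. Its other window also holds 1, as do 5.91% of promoters:
NFKBIZ: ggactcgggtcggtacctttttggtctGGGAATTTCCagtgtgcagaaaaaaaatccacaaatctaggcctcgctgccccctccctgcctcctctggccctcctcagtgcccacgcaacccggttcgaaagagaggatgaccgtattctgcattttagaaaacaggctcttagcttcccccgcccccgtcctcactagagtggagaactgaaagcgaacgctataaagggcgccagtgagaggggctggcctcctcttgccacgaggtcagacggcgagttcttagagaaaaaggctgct
CCL20, a chemokine made by gut epithelium that attracts dendritic cells and lymphocytes, had 7.91 and 7.57 TPM in co-culture against 3.58, 4.41 and 3.69 TPM in mono-culture (0.84 ± 0.27). The chemokine CCL15 had lower values in co-culture, with 3.78 and 3.82 TPM in co-culture against 10.8, 6.75 and 4.28 TPM in mono-culture (-0.71 ± 0.31). Over 28 interferon response and MHC class I genes the median was 0.00, with 0 higher and 2 lower at an unadjusted p under 0.05. Both are synthases of the antiviral messenger 2-5A. OAS1 had 33.1 and 31.4 TPM in co-culture against 48.7, 44.5 and 43.1 TPM in mono-culture (-0.48 ± 0.12) and OAS3 had 18.01 and 19.1 TPM in co-culture against 21.8, 23.9 and 28.5 TPM in mono-culture (-0.39 ± 0.15), without overlap, and neither overlapped with FFAs.

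Among plasma protein genes the fibrinogen chains had higher values in co-culture. Of 24 complement, clotting and serpin genes tested 6 were higher and 0 lower at an unadjusted p under 0.05, 17 were higher and 7 lower in mean, and the median was 0.10 (0.03 without mono-cultured replicate 3 and 0.26 without mono-cultured replicate 1). The 3 fibrinogen chains, which assemble into the clotting protein and are encoded side by side on chromosome 4, were all higher in co-culture without overlap. FGA had 50.7 and 70.9 TPM in co-culture against 38.9, 32.6 and 42.9 TPM in mono-culture (0.65 ± 0.21), FGB had 147 and 221 TPM in co-culture against 103, 77.9 and 84.7 TPM in mono-culture (1.03 ± 0.36). FGG had 595 and 819 TPM in co-culture against 529, 426 and 385 TPM in mono-culture (0.66 ± 0.27). With FFAs the groups again did not overlap, and the differences were 0.82, 1.27 and 0.98, where co-cultured FFAs replicate 1 held an estimated 2.17% of HepG2 RNA, the others at most 0.242%, and the part of that RNA in these differences was not tested. In control HepG2 cells the chains had differences of −0.51, −0.34 and −0.49 between co-culture and mono-culture, the opposite sign. SERPINF1, which encodes pigment epithelium-derived factor, had 48.5 and 39.3 TPM in co-culture against 27.8, 21.4 and 24.4 TPM in mono-culture (0.81 ± 0.19). SELENOP, the plasma selenium carrier, had 262 and 274 TPM in co-culture against 194, 178 and 177 TPM in mono-culture (0.55 ± 0.14). The fibrinogen promoters (RefSeq, GRCh38.p14, 250 bases before to 50 after the start) are shown because the 3 genes had values in the same order. They are FGA chr4:154590693-154590992 (− strand), FGB chr4:154562730-154563029 (+ strand, the first of 2 windows) and FGG chr4:154612607-154612906 (− strand). Capitals mark CTGGGA, the core of the element through which IL-6 acts on these genes, searched on both strands (TCCCAG is its reverse). It lies 127 bases before the start of FGA, 112 before that of FGB, and 161 and 42 before that of FGG, and such a short word occurs in 33.3% of all 35116 promoters:
FGA: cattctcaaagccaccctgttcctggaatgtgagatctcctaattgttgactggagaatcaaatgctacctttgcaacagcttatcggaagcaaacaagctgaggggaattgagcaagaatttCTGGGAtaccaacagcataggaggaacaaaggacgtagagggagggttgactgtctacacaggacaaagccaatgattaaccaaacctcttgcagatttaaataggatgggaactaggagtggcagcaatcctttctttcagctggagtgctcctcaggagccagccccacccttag
FGB: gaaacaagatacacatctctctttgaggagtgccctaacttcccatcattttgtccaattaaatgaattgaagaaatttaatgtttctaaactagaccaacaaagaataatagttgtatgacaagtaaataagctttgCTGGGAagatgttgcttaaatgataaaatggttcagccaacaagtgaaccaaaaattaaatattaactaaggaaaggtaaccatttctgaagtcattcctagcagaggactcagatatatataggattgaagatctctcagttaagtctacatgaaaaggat
FGG: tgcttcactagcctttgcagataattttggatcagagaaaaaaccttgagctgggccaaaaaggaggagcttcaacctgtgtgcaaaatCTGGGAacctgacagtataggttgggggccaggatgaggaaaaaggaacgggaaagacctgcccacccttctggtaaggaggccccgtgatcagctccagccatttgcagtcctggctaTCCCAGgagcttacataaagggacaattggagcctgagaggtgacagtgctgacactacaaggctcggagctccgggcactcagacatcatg

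HepG2 marker transcripts were higher in 1 of the 2 co-cultured libraries than in any mono-cultured one. The share of HepG2 RNA was estimated from 29 genes that had at least 50 TPM in every mono-cultured HepG2 library and at most 1 TPM in every mono-cultured Caco-2 library with FFAs, as their summed TPM divided by that of mono-cultured HepG2 cells. It was 0.876% in co-cultured replicate 1 and 0.0775% in co-cultured replicate 2, against 0.117%, 0.155% and 0.0846% in mono-culture (two-sided exact permutation test, p = 0.4). The mono-cultured libraries came from Caco-2 cells cultured alone, so their values give the background of the estimate. Without replicate 1 the difference in mean share was −0.0415 percentage points. SPP1, the HepG2 marker that encodes osteopontin and was picked out after its values were seen, had 19.6 and 0.30 TPM in co-culture against 0.170, 0.9601 and 0.230 TPM in mono-culture, and TF, which encodes transferrin, had 42.8 and 4.17 TPM in co-culture against 6.41, 9.45 and 5.11 TPM in mono-culture. The fibrinogen chains were lower in the library with this signal than in the one without it. After the share, its background included, had been subtracted from every library, the differences were 0.43, 0.97 and 0.62 for FGA, FGB and FGG. FGA no longer passed an unadjusted p of 0.05, while FGB and FGG did. The complement, clotting and serpin list then had 4 higher genes past that threshold in place of 6, with 13 higher and 11 lower in mean and a median of 0.04. Of all genes, 786 of the 823 genes at an unadjusted p under 0.05 remained. Of 26 hepatocyte and HepG2 genes tested, 18 had a higher mean in co-culture before the subtraction, where 58.3% of all genes did. After it 13 were higher and 12 lower in mean, 2 were higher at an unadjusted p under 0.05, and the median was 0.002. Before the subtraction the 3 past an unadjusted p of 0.05 were the fibrinogen chains. The median was then 0.06 (−0.08 without mono-cultured replicate 3 and 0.19 without mono-cultured replicate 1). The summed level of all 27 listed genes ran from 10599 to 10791 TPM in co-culture and from 9038 to 11527 TPM in mono-culture. In bulk RNA a few cells of another type and a low level of their genes in every cell cannot be told apart.

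**Figure D3:**
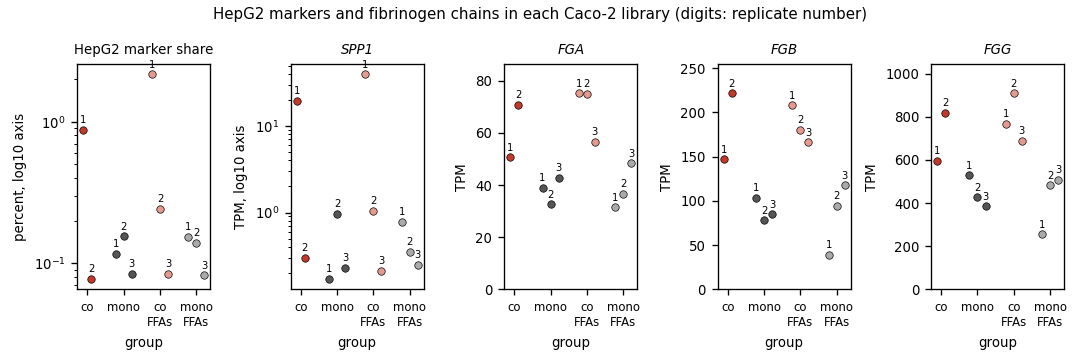
Estimated HepG2 share (percent, log10 axis), SPP1 (TPM, log10 axis) and the fibrinogen chains FGA, FGB and FGG (TPM, from 0) in each Caco-2 library by group, with digits for replicate numbers. Co-cultured control replicate 1 holds the high marker share (0.876%) and replicate 2 the higher fibrinogen values.

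Transporters and enzymes that handle drugs and bile acids included higher and lower genes. Of 21 bile acid and drug transport genes tested, 3 were higher and 1 lower at an unadjusted p under 0.05. In mean 14 were higher and 7 lower, where 58.3% of all genes were higher. Their median was 0.07 (0.01 without mono-cultured replicate 3 and 0.27 without co-cultured replicate 1). NR0B2, the small heterodimer partner that bile acids induce through the receptor FXR, had 9.25 and 8.08 TPM in co-culture against 5.69, 4.49 and 2.53 TPM in mono-culture (0.93 ± 0.28). ABCB1, the efflux pump P-glycoprotein, had 44.4 and 58.3 TPM in co-culture against 21.7, 27.3 and 44.3 TPM in mono-culture (0.76 ± 0.24), where mono-cultured replicate 3 lay just below the co-cultured libraries. ABCC6 had 50.3 and 56.6 TPM in co-culture against 45.4, 41.9 and 34.6 TPM in mono-culture (0.39 ± 0.16). ABCG2 (ENSG00000118777, chr4:88090150-88231628, - strand), an apical efflux pump for urate and drugs, was the lower one, with 8.57 and 8.79 TPM in co-culture against 14.5, 16.97 and 13.6 TPM in mono-culture (-0.72 ± 0.21). It had 8.30, 8.06 and 7.94 TPM in co-culture against 15.9, 14.97 and 9.03 TPM in mono-culture with FFAs, again without overlap. PDZK1, a scaffold of apical transporters, had 169.7 and 223 TPM in co-culture against 138, 142 and 121 TPM in mono-culture (0.54 ± 0.16). Of 20 drug-metabolising enzymes and their regulators tested, 2 were higher and 1 lower, with a median of 0.21 (0.08 without mono-cultured replicate 3 and 0.30 without co-cultured replicate 1). The carboxylesterase CES1 had 583 and 661 TPM in co-culture against 547, 501 and 449 TPM in mono-culture (0.32 ± 0.11), TIPARP, a target and inhibitor of the aryl hydrocarbon receptor, had 12.3 and 16.4 TPM in co-culture against 9.30, 8.33 and 10.5 TPM in mono-culture (0.56 ± 0.24). The cytochrome P450 CYP2S1 had 52.9 and 49.6 TPM in co-culture against 75.1, 64.4 and 61.6 TPM in mono-culture (-0.38 ± 0.12).

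A few genes of glucose uptake and use had lower values in co-culture. SLC2A1 (ENSG00000117394, chr1:42925353-42958893, - strand), the glucose transporter GLUT1, had 173 and 127 TPM in co-culture against 305, 276 and 227 TPM in mono-culture (-0.85 ± 0.23). With FFAs it had 184, 109 and 148 TPM in co-culture against 349.7, 284 and 233 TPM in mono-culture, a difference of -0.98. HKDC1, a hexokinase outside the lists, had 57.04 and 41.4 TPM in co-culture against 76.6, 78.03 and 70.7 TPM in mono-culture (-0.62 ± 0.14). The difference with FFAs was -0.62. Both genes were lower in co-culture without overlap in the controls and with FFAs. PFKP, the platelet type of phosphofructokinase, had 105 and 77.1 TPM in co-culture against 137, 130.00 and 113 TPM in mono-culture (-0.48 ± 0.21). LDHA, which makes lactate, had 560.1 and 389 TPM in co-culture against 677, 771 and 572 TPM in mono-culture (-0.52 ± 0.22). In the list of 29 glycolysis and hypoxia genes, 1 was higher and 2 lower at an unadjusted p under 0.05 and the median was −0.09. The higher one was ADM, the hypoxia-induced peptide adrenomedullin, with 105 and 148 TPM in co-culture against 58.4, 63.9 and 87.96 TPM in mono-culture (0.84 ± 0.34). Of 20 nutrient transporters tested 0 were higher and 4 lower, although 11 had a higher mean and the median was 0.04. Beside SLC2A1 these were SLC3A1, SLC16A1 and SLC19A1. SLC3A1, the heavy chain of the cystine and dibasic amino acid transporter, had 7.09 and 9.40 TPM in co-culture against 15.6, 17.1 and 13.6 TPM in mono-culture (-0.84 ± 0.21). The monocarboxylate transporter SLC16A1 had 73.3 and 84.2 TPM in co-culture against 93.5, 95.5 and 111 TPM in mono-culture (-0.34 ± 0.14). The folate carrier SLC19A1 had 55.2 and 45.1 TPM in co-culture against 72.3, 69.8 and 58.3 TPM in mono-culture (-0.41 ± 0.17).

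Sterol synthesis genes were lower in mean almost throughout the list, 23 of 25 with a median of −0.20, and 3 of them passed an unadjusted p of 0.05. FDPS, which makes farnesyl diphosphate, had 366 and 264 TPM in co-culture against 524, 579 and 327 TPM in mono-culture (-0.57 ± 0.22). MSMO1, which removes methyl groups from the sterol ring, had 79.9 and 104 TPM in co-culture against 130.4, 148 and 100 TPM in mono-culture (-0.44 ± 0.15). FDFT1, which commits farnesyl diphosphate to sterols, had 152 and 147 TPM in co-culture against 207, 225 and 147 TPM in mono-culture (-0.34 ± 0.15). In all 3 genes mono-cultured replicate 3 lay among or next to the co-cultured libraries, and replicates 1 and 2 lay above. The median of the list lay between −0.20 and −0.25 after either scaling and without either co-cultured library, but it rested on the mono-cultured ones. It was −0.10 with 0 members passing without mono-cultured replicate 2, and −0.34 with 13 passing without mono-cultured replicate 3. Of 15 fatty acid synthesis and desaturation genes tested, 11 were lower in mean (median −0.19), and only ME1, the malic enzyme that supplies NADPH, passed, with 81.8 and 87.9 TPM in co-culture against 112, 106 and 113 TPM in mono-culture (-0.37 ± 0.10).

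Nuclear-encoded subunits of the mitochondrial respiratory chain had slightly lower values as well. Of 63 tested 56 were lower in mean and 19 lower without overlap (against 8.15% of all genes), with a median of −0.12 (−0.14 without co-cultured replicate 1 and −0.05 without co-cultured replicate 2), but the spread of single genes was of the same order and only 2 passed an unadjusted p of 0.05. COX7A2, a cytochrome c oxidase subunit, had 463 and 492 TPM in co-culture against 644, 619 and 551 TPM in mono-culture (-0.34 ± 0.10). NDUFA3 of complex I had 191 and 172 TPM in co-culture against 261, 226 and 193 TPM in mono-culture (-0.31 ± 0.14). With FFAs the differences were -0.04 and -0.04 and did not pass, and the median over the list was −0.04. NDUFAF2, an assembly factor of complex I outside the list, had 75.2 and 70.8 TPM in co-culture against 92.2, 93.1 and 94.6 TPM in mono-culture (-0.35 ± 0.087), with equal size under FFAs, -0.36. The 37 genes of the mitochondrial genome were listed at 0 in every library because their reads had been removed. Over 78 ribosomal protein genes the median was 0.03, with 49 higher and 29 lower in mean, where 58.3% of all genes were higher. RPS27 alone passed, with 3306 and 3297 TPM in co-culture against 2826, 2863 and 3035 TPM in mono-culture (0.18 ± 0.077). Of 34 cell cycle and DNA replication genes 26 were lower in mean, with a median of −0.11 (−0.17 without co-cultured replicate 1 and −0.05 without co-cultured replicate 2), and 1 passed, MCM6 of the replicative helicase, with 49.02 and 42.4 TPM in co-culture against 61.7, 67.8 and 50.5 TPM in mono-culture (-0.38 ± 0.16).

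Epithelial and secretory markers included several lower genes. Of 15 Caco-2 and intestinal epithelial markers 0 were higher and 2 lower at an unadjusted p under 0.05, with a median of −0.09 (−0.17 without mono-cultured replicate 3 and −0.01 without co-cultured replicate 1). The adhesion molecule CEACAM5, a marker of colorectal tumours, had 14.1 and 10.3 TPM in co-culture against 32.1, 29.8 and 19.2 TPM in mono-culture (-1.07 ± 0.40). The keratin KRT18 had 3732 and 3215 TPM in co-culture against 4655, 4549 and 4127 TPM in mono-culture (-0.36 ± 0.16). CEACAM5 was also the 1 lower gene among 22 brush border and enterocyte genes tested (0 higher, median −0.06). Only 7 of 16 mucins and trefoil factors and their partners passed the filter, 6 of them lower in mean, with a median of −0.37 (−0.59 without co-cultured replicate 1 and −0.15 without co-cultured replicate 2). Of these, 2 passed an unadjusted p of 0.05. Without mono-cultured replicate 1, without mono-cultured replicate 2 or in limma without the trend 0 passed, and without mono-cultured replicate 3 it was 3. The trefoil peptide TFF1 had 53.6 and 31.8 TPM in co-culture against 75.5, 60.9 and 56.1 TPM in mono-culture (-0.61 ± 0.27). AGR2, the disulfide isomerase that folds mucins, had 391 and 292 TPM in co-culture against 543, 550.2 and 402 TPM in mono-culture (-0.55 ± 0.22). Among 22 tight and adherens junction genes 1 was higher and 0 lower (median 0.09), the claudin CLDN3, with 47.1 and 59.7 TPM in co-culture against 36.2, 28.4 and 43.9 TPM in mono-culture (0.56 ± 0.25).

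Transcription factors that set endodermal identity and sense lipids and hormones were mostly higher in mean. Of 32 nuclear receptors and endodermal factors tested, 6 were higher and 0 lower at an unadjusted p under 0.05, 27 were higher and 5 lower in mean, and the median was 0.16. It was 0.22 without co-cultured replicate 1 and 0.03 without co-cultured replicate 2. The thyroid hormone receptor THRA had 8.71 and 9.59 TPM in co-culture against 6.20, 6.48 and 6.28 TPM in mono-culture (0.47 ± 0.15). The forkhead factor FOXA2 had 29.4 and 30.1 TPM in co-culture against 22.4, 22.4 and 23.8 TPM in mono-culture (0.36 ± 0.11), where the values within each group were close, while with FFAs it had 20.9, 22.6 and 25.3 TPM in co-culture against 22.7, 23.3 and 24.9 TPM in mono-culture. PPARA, the fatty acid receptor, had 10.7 and 10.6 TPM in co-culture against 8.94, 6.63 and 6.0 TPM in mono-culture (0.52 ± 0.18). The orphan receptor NR2F6 had 114 and 132 TPM in co-culture against 103, 95.6 and 104 TPM in mono-culture (0.28 ± 0.097). None of the 32 passed an unadjusted p of 0.05 in either direction with FFAs.

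The stress and growth lists held 1 gene at most past an unadjusted p of 0.05. Of 23 integrated stress response genes 20 were higher in mean, with a median of 0.22 (0.10 without mono-cultured replicate 1 and 0.41 without mono-cultured replicate 3) and 6 passing without mono-cultured replicate 3, and the one that passed was DDIT3, the factor CHOP, with 142 and 161 TPM in co-culture against 109, 122 and 100 TPM in mono-culture (0.46 ± 0.20), whereas with FFAs the median of the list was −0.10. Of 19 p53 targets and apoptosis genes 15 were higher in mean, with a median of 0.19 (0.09 without co-cultured replicate 2 and 0.28 without co-cultured replicate 1), and the survival factor MCL1 had 92.8 and 120.5 TPM in co-culture against 77.1, 78.8 and 73.5 TPM in mono-culture (0.46 ± 0.20). Of 17 Wnt/beta-catenin targets 14 were higher in mean (median 0.18), while the one that passed was lower, the hyaluronan receptor CD44, with 12.9 and 7.42 TPM in co-culture against 23.02, 17.8 and 15.2 TPM in mono-culture (-0.84 ± 0.32). Of 18 genes of the IGF system and growth factors 11 were higher in mean, close to the share of 58.3% among all genes. Their median was 0.09 (−0.05 without co-cultured replicate 2 and 0.23 without co-cultured replicate 1). IGF2 had 253 and 302 TPM in co-culture against 233, 223 and 182 TPM in mono-culture (0.38 ± 0.17). Of 18 iron-handling genes 9 were higher and 9 lower in mean (median 0.00), and TFRC, the transferrin receptor, had 196 and 115 TPM in co-culture against 229, 291 and 227 TPM in mono-culture (-0.71 ± 0.24). In 8 lists no member passed. The medians were 0.10 for 17 circadian clock genes, 0.07 for 21 NRF2 targets, 0.04 for 19 apolipoproteins and lipoprotein assembly genes, 0.03 for 21 PPAR targets and beta-oxidation genes, 0.03 for 12 genes of metallothioneins, zinc and copper, 0.01 for 21 endoplasmic reticulum chaperones, −0.10 for 16 heat shock genes (14 of them lower in mean), and 0.08 for the 9 tested markers of other cell types.

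**Figure D4:**
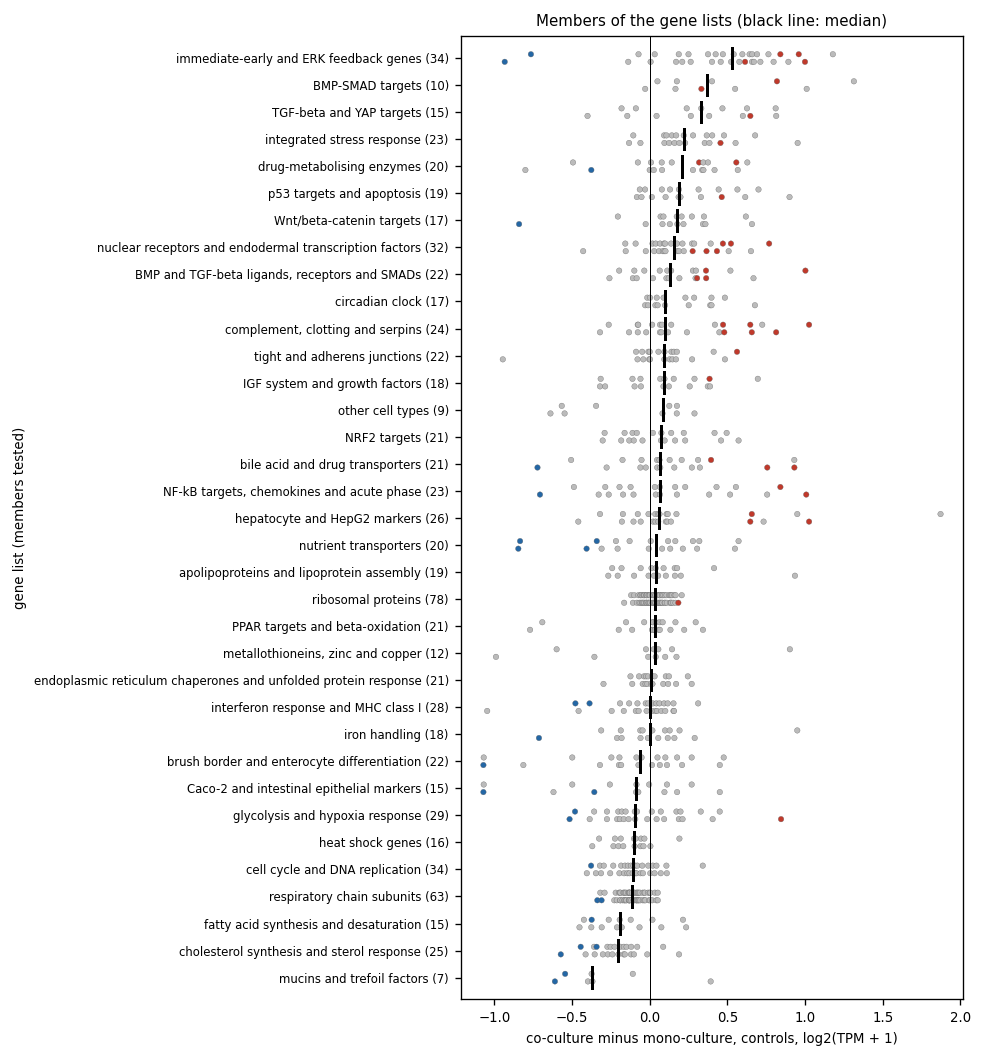
Differences between co-culture and mono-culture (x axis, log2(TPM + 1)) of the tested members of the 35 gene lists (y axis, ordered by median; the number tested in brackets). Points are genes, red and blue those higher or lower at an unadjusted p under 0.05 and grey the others, black lines are medians, and the medians run from −0.37 for mucins to 0.53 for immediate-early genes.

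The remaining genes with the largest negative differences at an unadjusted p under 0.01 serve in RNA synthesis, trafficking and DNA binding. CD3EAP, a subunit of RNA polymerase I, had 12.1 and 10.4 TPM in co-culture against 24.1, 17.9 and 19.99 TPM in mono-culture (-0.81 ± 0.25). RAB31, a small GTPase of vesicle transport, had 5.38 and 8.15 TPM in co-culture against 11.6, 11.3 and 11.8 TPM in mono-culture (-0.72 ± 0.21). NABP1, a single-stranded DNA-binding protein, had 17.6 and 16.6 TPM in co-culture against 26.2, 30.2 and 27.4 TPM in mono-culture (-0.68 ± 0.21), WDR4, a partner of a tRNA methyltransferase, had 10.5 and 8.65 TPM in co-culture against 14.02, 19.7 and 12.96 TPM in mono-culture (-0.63 ± 0.19). C5orf30 had 5.54 and 6.07 TPM in co-culture against 10.02, 9.87 and 8.73 TPM in mono-culture (-0.63 ± 0.20). PLEK2, a pleckstrin-like protein, was lower without overlap in both conditions, with 50.99 and 48.1 TPM in co-culture against 71.2, 70.4 and 66.5 TPM in mono-culture (-0.48 ± 0.12) in the controls. Among abundant genes the splicing factor U2AF1, whose reads can be divided with a near-identical copy on the same chromosome, had 99.7 and 86.3 TPM in co-culture against 121, 121 and 123 TPM in mono-culture (-0.39 ± 0.11). ERGIC2, a protein of the compartment between endoplasmic reticulum and Golgi, had 118 and 115 TPM in co-culture against 148, 148 and 139 TPM in mono-culture (-0.32 ± 0.092).

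The comparison of the culture modes in the FFAs-treated libraries called 0 genes at an adjusted p under 0.05 (limma), with 406 genes higher (2.78%) and 451 lower (3.09%) at an unadjusted p under 0.05. Most genes that differed in the controls kept their direction in these libraries. Of the 257 lower control genes, 229 (89.1%) had a lower mean with FFAs, compared with 48.1% of all genes, and 89 were lower at an unadjusted p under 0.05, which is 34.6% of the control genes and 19.7% of the FFAs genes. Of the 566 higher control genes, 421 (74.4%) had a higher mean with FFAs, compared with 51.5% of all genes, and 89 were also higher at an unadjusted p under 0.05, which is 15.7% of the control genes and 21.9% of the FFAs genes. The difference between these shares was not tested. Both comparisons took the spread of each gene from the same fit, so the genes passing in each were not chosen independently. The interaction of culture mode and FFAs passed an adjusted p of 0.05 for 0 genes and an unadjusted p of 0.05 for 274 (1.88%).

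**Figure D5:**
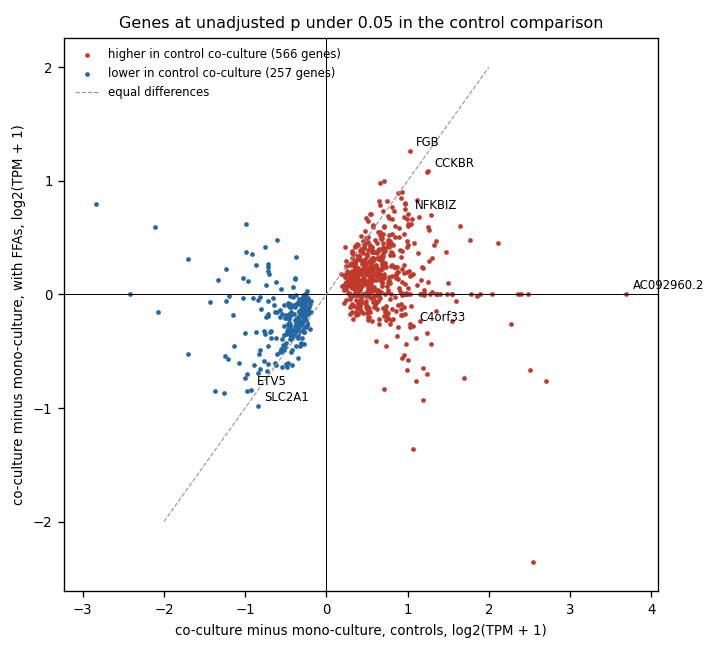
Difference between co-culture and mono-culture with FFAs (y axis) against that in the controls (x axis), both in log2(TPM + 1), for the 566 higher (red) and 257 lower (blue) control genes at an unadjusted p under 0.05. The dashed line marks equal differences, most blue points lie in the lower left quadrant (229 of 257) and most red points in the upper right (421 of 566).

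The libraries also differed in the number of genes listed above 0 TPM, so the differences were computed within libraries of similar numbers. Co-cultured replicate 1 was set against mono-cultured replicates 1 and 2 (at most 21596 genes each), and co-cultured replicate 2 against mono-cultured replicate 3 (at least 22637). Of the 566 higher genes 542 were higher in both sets, and of the 257 lower genes 254 were lower in both. These libraries had also chosen the genes, and the 523 higher and 241 lower genes without overlap keep their direction in both sets by construction. The counts are therefore no support for the differences. Over all 14608 genes, 4678 were higher and 2899 lower in both sets. For CCKBR the differences were 0.99 and 1.72, for NFKBIZ 1.12 and 0.94, for HBEGF 0.69 and 1.22, for SLC2A1 -0.74 and -0.84, for SERPINF1 0.96 and 0.66 and for FGB 0.70 and 1.37 in the sets with fewer and more genes. FDPS had -0.59 and -0.31, but MSMO1 had -0.79 and 0.06 and FDFT1 -0.51 and 0.00, so the lower sterol genes were separated mainly in the set with fewer genes. The 3 called genes were again the only ones called when this split entered the fit as a term (limma adjusted p = 0.00484, 0.00484 and 0.0342). Their values above 0 occurred only in the 2 co-cultured controls, 1 in each set. The term could not take up such a difference, so the repeated calls are no support for it.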

How the data were processed

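mRNA-seq libraries were prepared from total RNA with the SMART-Seq v4 kit and sequenced on a NovaSeq instrument. The authors discarded reads from rRNA, tRNA and the mitochondrial genome with Bowtie 2.1.0, mapped the rest with STAR 2.7.1a (GRCh38, Ensembl 98), and deposited TPM per gene from RSEM 1.3.0, which divides reads among similar sequences. Counts, and thus depth, are unknown. Groups came from the sample labels. The labels' extraction text names differentiated primary myoblasts, but line, source and markers are those of Caco-2. Values were analysed as log2(TPM + 1) with limma 3.58.1 (R 4.3.3, eBayes with trend) over the 4 groups of 11 Caco-2 libraries, restricted to genes that averaged 1 TPM or more in any control group, at a Benjamini-Hochberg adjusted p of 0.05. HepG2 controls were fitted separately. Library measures were tested by exact permutation (Python 3.11.15). The 35 gene lists, the genes and the comparison were chosen with earlier results of these data known. Genes named were those at an adjusted p under 0.05; the 10 largest differences each way among protein-coding genes with p under 0.01, no overlap and at least 5 TPM; 8 each way without overlap in controls and FFAs; 4 each way at 100 TPM or more; and, per list, up to 4 members with p under 0.05, by p. Sequences were matched to GENCODE v44 transcripts with BLAST 2.17.0, and 60295 gene identifiers were found in GENCODE v44. In simulated data for the control comparison (14608 genes), limma recovered 69% of changes of 1 and 98% of changes of 2 on the log2 scale, and called 12 unchanged genes. Each size was planted in 100 genes, all with a mono-culture mean log2(TPM + 1) above 2, and the noise was normal and independent. The recovered shares therefore do not cover genes of low level, such as those called. One sequence is not reported here.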

Additional observations from a re-analysis of the deposited data

Results flagged for a closer look

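EDC4, which encodes a scaffold of the mRNA decapping complex, was higher in every co-cultured than in every mono-cultured control library and lower in every co-cultured than in every mono-cultured FFAs-treated library. The control difference was 0.32 ± 0.0845 (SE) and the FFAs difference −0.16 on the log2(TPM + 1) scale, so that the co-culture effect with FFAs minus that in the controls was −0.47 ± 0.11 (unadjusted p = 0.0015, limma adjusted p = 1.00 over 14608 genes). The interaction therefore did not pass the adjusted threshold, and 274 genes (1.88%) had an unadjusted interaction p under 0.05.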

How the results depend on the processing

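The 3 higher genes at an adjusted p under 0.05 (limma) numbered 3 again after median-of-ratios scaling, quantile normalization, subtraction of the HepG2 share and with the detection term, an alternative chosen after seeing the data, and they were the same genes each time. These genes had values above 0 in the 2 co-cultured controls alone, a difference that the detection term cannot take up. They numbered 5 without the trend, 10 without a filter on TPM, and 0 with a mean of at least 5 TPM, with only the 5 control libraries or with a pseudocount of 0.1. Without single libraries they ranged from 2 to 26, with 17 without co-cultured replicate 1, 26 without co-cultured replicate 2, and 2 without mono-cultured replicate 2 or 3; the cause was not tested. Lower genes at an adjusted p under 0.05 ranged from 0 to 2 (2 without co-cultured replicate 2, 1 without mono-cultured replicate 2). At an unadjusted p under 0.05, higher genes numbered 372 with a mean of at least 5 TPM and 1101 without a filter, as fewer and more genes were tested, and ranged from 397 to 767 without single libraries. Lower genes numbered 405 after median-of-ratios scaling and ranged from 148 to 485, with 162 without co-cultured replicate 2, 148 without mono-cultured replicate 2 and 485 without mono-cultured replicate 3. Genes at an adjusted interaction p under 0.05 numbered 1 after subtraction, 3 without the trend and 6 without a filter, and ranged from 0 to 13 (10 and 13 without co-cultured replicates 1 and 2, 1 without mono-cultured replicate 3). The difference in HepG2 share ranged from −0.0415 to 0.757 percentage points, negative without co-cultured replicate 1, and that in genes above 0 TPM from −163 to 1931, negative without co-cultured replicate 2. With a limit of 0.1 or 1 TPM, co-culture had 634 or 256 more genes on average (exact permutation p = 0.1, the smallest possible). Over 87 named genes and 1302 values under these alternatives, the direction changed once, for TF, whose difference ranged from −0.59 to 2.49 and was negative without co-cultured replicate 1; the call was lost 11 times, all among the 3 called genes, and gained for CCKBR without mono-cultured replicate 1 (adjusted p = 0.0262, and up to 0.999 under other alternatives) and for SLC25A25 in the replicate block.

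Of the 15 pairs of same-numbered Caco-2 libraries of different groups, 7 deviated together with r over 0.1 across genes, which are not independent: 4 of 6 pairs numbered 1, 0 of 6 numbered 2 and 3 of 3 numbered 3. Between the control groups r was 0.11 for number 1 and −0.096 for number 2, and co-cultured replicate 2 deviated with the libraries numbered 3 (r = 0.185 to 0.307) rather than 2 (−0.0962 to −0.015). With only 2 co-cultured controls, their deviations from the group mean are exact opposites. The values of replicate 2 therefore add nothing to those of replicate 1, and their pairs are not separate. Not every pair exceeded 0.1, and the labels name no shared day or batch, so the numbers were not taken to pair the libraries. Entering the number as a replicate block gave 4 higher genes, 2 of them among the 3 called (AC018797.1 had an adjusted p of 0.0579), and 1 lower gene at an adjusted p under 0.05, and 1337 higher and 705 lower genes at an unadjusted p under 0.05. Since TPM keep no read counts, no limit that depth sets on the low-level genes can be given, and the 3 called genes lie in that range.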
